A study of Mus musculus with 4 samples.

Results

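The genes described here are the tumour necrosis factor (TNF) ligand and receptor families and the NF-kB components that act below them, measured in mouse fibroblasts. Members were taken by symbol: the genes whose array row carries a single symbol beginning with Tnfsf or Tnfrsf, apart from 1 left out by name, together with a set of named ligands, receptors, adaptors, NF-kB subunits and NF-kB inhibitors. This gave 45 of the 22180 genes tested: 12 ligands, 21 receptors, 3 adaptors, 4 NF-kB subunits and 5 inhibitors or regulators. Nfkb1 and Traf3 belong to the set by name but were not analysed here. The fibroblasts came from mice labelled Zip13KO, with 2 arrays, and from wild-type (WT) mice, with 2 arrays. Total RNA was hybridised to Affymetrix Mouse Gene 2.0 ST arrays. The labels give no strain, age, sex or treatment, and do not state how the allele was made, how many mice each replicate stands for, or whether replicates were separate cultures, although they call the replicates biological. The p-values below measure only how these samples scatter, and the test borrows most of each gene's spread from other genes. Zip13, encoded by Slc39a13, is a zinc transporter, and the study's stated interest is zinc balance around the Golgi.

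TNF family ligands are mostly membrane-bound trimers that can be cleaved free, and they engage cysteine-rich receptors on the cell surface. Some receptors carry a death domain and can start apoptosis, others recruit TRAF adaptors directly, and decoy receptors bind ligand without a full signalling tail. Many of these receptors lead to NF-kB, a family of dimeric transcription factors held in the cytoplasm by IkB proteins. In the canonical arm IkB is degraded and Rela-containing dimers enter the nucleus, whereas in the non-canonical arm the precursor encoded by Nfkb2 is processed and pairs with Relb. NF-kB induces several of its own inhibitors, so the pathway limits itself.

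Promoters of 3 genes of that loop are shown because they are classic NF-kB targets and passed the test here, Nfkbia and Tnfaip3 lower and Nfkb2 higher in Zip13KO fibroblasts. Each window runs from 250 bases before to 50 bases after an annotated RefSeq start (GRCm38.p6), printed 5′ to 3′ on the gene's strand, with matches to the NF-kB consensus in capitals. The consensus was read as a run of G, then a purine, any base, A or T, a pair of pyrimidines and a pair of C, on both strands. Where a gene had several starts, the most upstream with a match is shown.
Nfkbia, chr12:55492598-55492897, minus strand: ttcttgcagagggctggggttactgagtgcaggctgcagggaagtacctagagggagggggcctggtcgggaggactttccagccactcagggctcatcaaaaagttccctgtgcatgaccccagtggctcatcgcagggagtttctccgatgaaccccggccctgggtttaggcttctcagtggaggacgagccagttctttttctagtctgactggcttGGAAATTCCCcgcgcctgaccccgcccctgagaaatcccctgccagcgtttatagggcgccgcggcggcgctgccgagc
Tnfaip3, chr10:19015361-19015660, minus strand: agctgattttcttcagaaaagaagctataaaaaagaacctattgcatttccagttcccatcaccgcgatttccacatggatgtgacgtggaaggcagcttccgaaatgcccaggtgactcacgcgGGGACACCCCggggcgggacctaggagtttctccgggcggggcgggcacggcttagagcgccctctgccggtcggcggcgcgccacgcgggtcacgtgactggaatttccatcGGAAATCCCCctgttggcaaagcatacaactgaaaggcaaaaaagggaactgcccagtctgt
Nfkb2, chr19:46304487-46304786, plus strand: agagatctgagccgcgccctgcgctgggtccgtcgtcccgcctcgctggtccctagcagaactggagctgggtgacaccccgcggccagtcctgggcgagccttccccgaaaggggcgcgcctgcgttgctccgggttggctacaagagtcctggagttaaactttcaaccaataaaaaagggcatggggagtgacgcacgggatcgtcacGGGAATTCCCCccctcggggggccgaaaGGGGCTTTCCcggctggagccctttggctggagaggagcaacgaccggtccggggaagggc
In Nfkbia the match began 29 bases before the start. In Tnfaip3 the matches began 125 and 12 bases before it. In Nfkb2 a pair of overlapping matches began 39 and 38 bases before the start, and another began 11 bases before it. Of the 45 members, 37 had a RefSeq window, and 7 of these genes (18.9%) had a match in at least 1 window, against 5.14% of the 27025 genes in the table. The matches lay in 1 of 5 members that rose, 2 of 8 that fell and 4 of 24 that did not pass (Nfkbie, Rel, Tnfrsf8 and Tnfrsf9). A match is a description of letters and says nothing about occupancy.

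The 4 arrays resembled each other closely. Median intensity lay between 94.5 and 96.1, and Pearson's r was 0.994 within Zip13KO and 0.994 within WT, against 0.983 to 0.985 between the groups. Slc39a13 itself stood at 8.89 and 8.98 log2 units on the Zip13KO arrays, against 8.94 and 8.85 on the WT arrays, and the groups overlapped (difference 0.04, limma adjusted p = 0.820). Where its probes lie in relation to the altered stretch is not given, so the genotype could not be checked from this row, and directions follow the labels. Of 11 fibroblast markers, 9 lay above the array median on each array, and Lum and Fap did not. This count does not separate cell types. It was 8 of 9 for epithelial and mesothelial markers and 5 to 6 of 6 for myofibroblast markers. For leukocyte markers it was 7 to 9 of 19, and for endothelial markers 2 of 6. Of the fibroblast list, 5 fell and 1 rose (Pdgfra, by 1.04 log2 units). Of 6 myofibroblast markers, 5 fell, and their summed intensity was 2998 to 3011 on Zip13KO arrays against 13678 to 14233 on WT arrays. Of 19 leukocyte markers, 1 rose (Cd68) and 2 fell (Cd14 and Csf1r), with summed intensities of 1922 to 1945 in Zip13KO and 1906 to 2022 in WT. No endothelial marker of 6 passed in limma, though 1 was higher at an unadjusted p under 0.05. Of 9 epithelial and mesothelial markers Msln alone passed, and it rose by 2.97 log2 units, or 7.84-fold. The summed intensity of that list was 2376 to 2450 in Zip13KO and 1200 to 1261 in WT. Over all genes, 17.1% passed. The part of the cell mixture in the results below was not tested, and in bulk RNA fewer cells of a type and less RNA per cell cannot be told apart.

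Among the 45 members, 10 fell and 5 rose in Zip13KO fibroblasts. None of the ligands passed. Of the receptors, 7 fell and 1 rose. Traf1 and the subunit genes Nfkb2 and Rela rose, while the regulators Tnfaip3, Nfkbiz and Nfkbia fell and Nfkbib rose. The 15 members past the threshold (limma, adjusted p under 0.05 over all genes) were 33.3% of those measured, where 17.1% of all genes passed. By direction, 7.00% of all genes rose and 10.1% fell. The median difference over the members was 0.0015 log2 units, and over all genes it was -0.0034. The groups did not overlap for 27 members, or 60%, where this held for 51.5% of all genes. All differences were small: the largest was 1.71-fold, for Nfkbiz.

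**Figure D1:**
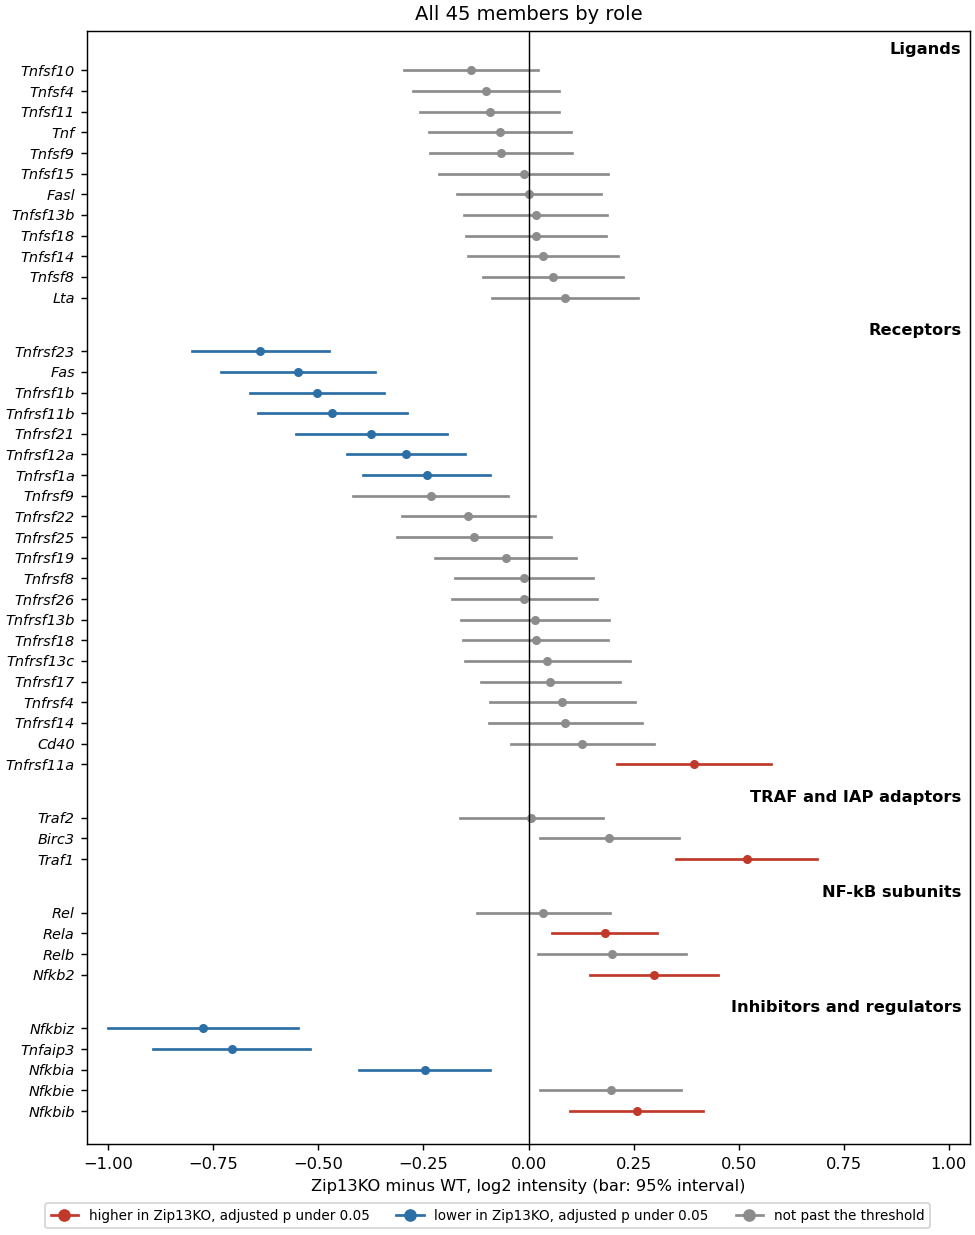
Difference between Zip13KO and WT arrays in log2 intensity for each of the 45 members, grouped by role. Points are limma estimates and bars 95% intervals. The 12 ligands lie around 0, 7 receptors are marked as lower past the threshold and 1 as higher, and the 4 subunits have estimates above 0.

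The calls were not equally stable over the settings run. A set of 7 members (Tnfrsf23, Fas, Tnfrsf1b, Tnfrsf11b, Traf1, Nfkbiz and Tnfaip3) kept an adjusted p under 0.05 in each of the 13 alternative settings run. For Fas, Tnfrsf11b and Traf1 the filter on dim rows is no support, because their rows lay above the array median on only 2 arrays, those of the group where they are higher. The other 8 lost the call when the model and the adjustment covered all rows of the table, a setting in which 8.14% of all genes and 7 of 45 members passed. Leaving out WT replicate 1 left 1 WT array, and the difference of Nfkbiz shrank from -0.77 to -0.56 log2 units. With the replicate block its difference stayed at -0.77, yet its limma adjusted p went from 3.62e-05 to 1.21e-13. The block and leave-out runs have fewer residual degrees of freedom and lean more on spread borrowed from other genes. Their p-values are not comparable with the main ones, and a call kept in them is weak support.

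None of the 12 ligand genes passed in limma, and none had an unadjusted p under 0.05 in either direction. Their differences ran from -0.14 to 0.09 log2 units, and the 95% intervals together spanned -0.30 to 0.26. Tnf, the founding cytokine of the family, read 6.79 and 6.78 log2 units on the Zip13KO arrays, against 6.90 and 6.81 on the WT arrays (difference -0.07, SE 0.08, adjusted p = 0.700). The Zip13KO arrays lay just below the WT arrays, by less than the test resolves. Lta, which shares receptors with Tnf, differed by 0.09 (adjusted p = 0.603). Fasl, the ligand of Fas, read 6.49 and 6.39 in Zip13KO and 6.41 and 6.47 in WT, so the groups overlapped (adjusted p = 0.996). Tnfsf11, which encodes the osteoclast factor RANKL, differed by -0.09 (adjusted p = 0.551). Tnfsf10, the apoptosis ligand TRAIL, had the largest difference among ligands at -0.14 (95% interval -0.30 to 0.02, adjusted p = 0.281). Rows of 8 of the 12 ligands lay below the array median on all 4 arrays, a range in which whole-transcript summaries compress differences. A row that carries Tnfsf12 and Tnfsf13 together is not among the members, since its signal cannot be assigned to either.

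The receptors of TNF itself both fell. Tnfrsf1b (TNFR2), which lacks a death domain and recruits TRAF2, read 7.98 and 7.95 log2 units in Zip13KO, against 8.49 and 8.44 in WT. The arrays of each group lay close together and the groups were well apart, a 1.42-fold lower level (difference -0.50, SE 0.08, adjusted p = 9.33e-05). Tnfrsf1a (TNFR1), the widely expressed death-domain receptor, read 9.36 and 9.33 in Zip13KO, against 9.64 and 9.54 in WT. It fell by 0.24 (SE 0.07, adjusted p = 0.0246). The Tnfrsf1a call was lost without WT replicate 1 (-0.19, adjusted p = 0.247) and without Zip13KO replicate 2 (-0.23, adjusted p = 0.0659).

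Among the other death-domain receptors measured, some passed and some did not. Fas, a death-domain receptor that assembles a caspase-activating complex and is also a known p53 target, read 6.55 and 6.44 log2 units in Zip13KO, against 7.14 and 6.95 in WT. It was 1.46-fold lower, without overlap (difference -0.55, SE 0.09, adjusted p = 1.63e-04). Tnfrsf21 (DR6), another death-domain receptor, read 7.08 and 6.99 in Zip13KO, against 7.49 and 7.32 in WT, and fell by 0.37 (adjusted p = 0.00399). Without WT replicate 1 its adjusted p was 0.0597. Tnfrsf25 (DR3), the death-domain receptor of Tnfsf15, differed by -0.13 and did not pass (adjusted p = 0.403). Ngfr and Edar, death-domain receptors named under other symbols, differed by 0.11 and -0.08 and did not pass either (adjusted p = 0.457 and 0.662).

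Tnfrsf23, a mouse decoy receptor for TRAIL, had the lowest adjusted p of all members. It read 9.31 and 9.47 log2 units in Zip13KO, against 10.10 and 9.96 in WT, so every Zip13KO array lay well below every WT array. It was 1.56-fold lower (difference -0.64, SE 0.08, adjusted p = 7.70e-06). On chromosome 7, Tnfrsf22 is the next protein-coding gene on one side, with Tnfrsf26 beyond it. Tnfrsf22, also a decoy for TRAIL, differed by -0.14 (adjusted p = 0.254), and Tnfrsf26 by -0.01 (adjusted p = 0.968). Tnfrsf22 and Tnfrsf23 are close paralogues, and whether their rows share signal was not tested, so their separate values are uncertain. The Tnfrsf26 row lay below the array median on every array. The difference between these neighbours' changes was not tested.

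The receptor and the soluble decoy of RANKL differed in opposite directions. Tnfrsf11a (RANK), the signalling receptor known from osteoclasts, was the only receptor among the members that rose. It read 7.58 and 7.42 log2 units in Zip13KO, against 7.18 and 7.03 in WT, a difference of 0.39 (SE 0.09, adjusted p = 0.00320). Tnfrsf11b (osteoprotegerin), a secreted decoy that binds RANKL, read 6.48 and 6.32 in Zip13KO, against 6.84 and 6.89 in WT, and fell by 0.47 (SE 0.08, adjusted p = 5.72e-04). Neither pair of groups overlapped. Tnfrsf12a (Fn14), the receptor of TWEAK and an injury-responsive gene in fibroblasts, read 10.48 and 10.53 in Zip13KO, against 10.86 and 10.74 in WT. It fell by 0.29 (SE 0.07, adjusted p = 0.00407), and its adjusted p was 0.0856 without WT replicate 1.

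The 13 receptors that did not pass had differences from -0.23 to 0.13 log2 units. Tnfrsf9 (4-1BB), a costimulatory receptor of T cells, stood at the lower end (-0.23, adjusted p = 0.0838), and it passed without Zip13KO replicate 2 (-0.33, adjusted p = 0.0180). Cd40, the receptor through which CD40 ligand activates antigen-presenting and stromal cells, stood at the upper end (0.13, adjusted p = 0.368). The lymphocyte receptors Tnfrsf4, Tnfrsf8, Tnfrsf13b, Tnfrsf13c, Tnfrsf17 and Tnfrsf18 lay between -0.01 and 0.08. Rows of 3 receptors (Tnfrsf13b, Tnfrsf17 and Tnfrsf26) lay below the array median on every array, a range where differences are compressed. Tnfrsf14 was at 0.09 and Tnfrsf19 at -0.05.

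**Figure D2:**
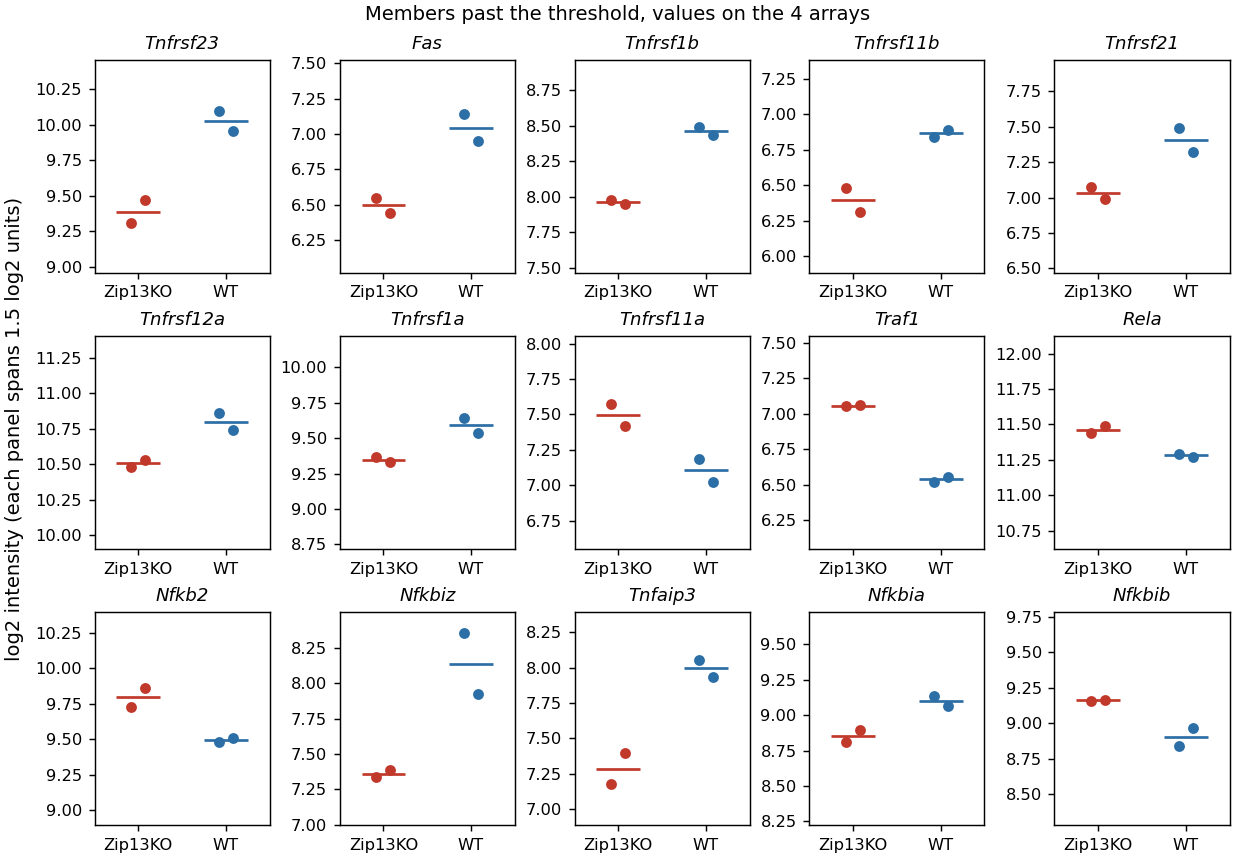
Log2 intensity on each array for the 15 members past the threshold, Zip13KO on the left and WT on the right of each panel. Points are arrays and lines group means, and every panel spans 1.5 log2 units. The groups do not overlap in any panel, and the WT arrays of Nfkbiz lie far apart.

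Below the receptors, Traf1 had the largest increase among the members. Traf1 encodes a TRAF without a RING domain that joins TRAF2 in receptor complexes, and the gene is itself induced by NF-kB. It read 7.05 and 7.06 log2 units in Zip13KO, against 6.52 and 6.55 in WT. Each group's arrays were nearly equal, and the level was 1.43-fold higher (difference 0.52, SE 0.08, adjusted p = 1.07e-04). Traf2, the core adaptor and its partner, read 8.08 and 8.25 in Zip13KO and 8.16 and 8.15 in WT (difference 0.01, adjusted p = 0.976). Birc3 (cIAP2), a ubiquitin ligase held in those complexes, differed by 0.19 without overlap and did not pass (adjusted p = 0.114).

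The NF-kB subunits measured lay at or above their WT level. Nfkb2, the p100 precursor of p52, read 9.72 and 9.86 log2 units in Zip13KO, against 9.48 and 9.51 in WT, and rose by 0.30 (SE 0.07, adjusted p = 0.00657). Its adjusted p was 0.0562 without Zip13KO replicate 2. Rela (p65), the main activating subunit of the canonical arm, read 11.44 and 11.49 in Zip13KO, against 11.29 and 11.27 in WT, a rise of 0.18 (SE 0.06, adjusted p = 0.0443). The Rela call sat close to the threshold: leaving out either WT array or Zip13KO replicate 2, or centring each array on its median, ended it (adjusted p from 0.0574 to 0.229). Relb, the partner of p52, read 7.97 and 8.02 in Zip13KO and 7.89 and 7.70 in WT (difference 0.20, adjusted p = 0.132), and it passed without WT replicate 1 (0.30, adjusted p = 0.0493). Rel (c-Rel), a subunit known best from lymphocytes, differed by 0.04 (adjusted p = 0.856).

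The regulators held the largest decreases of the whole set. Nfkbiz (IkB-zeta), a nuclear IkB protein that helps switch on secondary response genes, read 7.34 and 7.39 log2 units in Zip13KO, against 8.35 and 7.92 in WT. The WT arrays differed by more than those of any other member past the threshold, and both still lay above both Zip13KO arrays (difference -0.77, SE 0.11, adjusted p = 3.62e-05). Tnfaip3 (A20), a ubiquitin-editing enzyme that shuts down signalling from TNF receptors, read 7.18 and 7.40 in Zip13KO, against 8.05 and 7.94 in WT. It was 1.63-fold lower (difference -0.71, SE 0.09, adjusted p = 1.13e-05). The promoters of Tnfaip3 and Nfkbia carried NF-kB consensus matches, shown above, as did that of Nfkb2, which rose. The window at another annotated Tnfaip3 start held none, and neither did the window of Traf1, which rose. Nfkbiz had no promoter window. Whether the matches bear on these differences was not tested. Nfkbia (IkB-alpha), the inhibitor resynthesised first after NF-kB activation, read 8.81 and 8.90 in Zip13KO, against 9.14 and 9.06 in WT, and fell by 0.25 (SE 0.07, adjusted p = 0.0271). Without WT replicate 1 its adjusted p was 0.202, and without Zip13KO replicate 1 it was 0.149. Nfkbib (IkB-beta), an inhibitor that is not resynthesised as quickly, read 9.16 and 9.17 in Zip13KO, against 8.84 and 8.97 in WT. It rose by 0.26 (SE 0.07, adjusted p = 0.0220), with an adjusted p of 0.248 without WT replicate 1. Nfkbie (IkB-epsilon) differed by 0.20 without overlap and did not pass (adjusted p = 0.116).

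The TNF family also contains genes named under other symbols, and all 10 of these were examined, as a list added after the members' values had been seen. Of these 3 fell, 1 rose and 6 did not pass (40% called, where 17.1% of all genes passed). Ltbr, the lymphotoxin beta receptor, which drives the non-canonical arm in stromal cells, fell further than any of the 45 members. It read 7.51 and 7.78 log2 units in Zip13KO, against 9.62 and 9.41 in WT, a 3.65-fold lower level (difference -1.87, SE 0.09, adjusted p = 8.12e-11). Its ligand gene Ltb differed by 0.06 (adjusted p = 0.763). Relt, a receptor of less clear function, fell by 0.43 (adjusted p = 9.79e-04), and Eda2r, the receptor of an ectodysplasin form, was lower too (-0.68, adjusted p = 7.70e-06). Eda itself, which encodes ectodysplasin, rose by 0.32 (adjusted p = 0.0133), but not without WT replicate 2 (adjusted p = 0.0757) or Zip13KO replicate 1 (0.148).

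Among the kinases, ubiquitin ligases and adaptors between receptor and NF-kB, 6 of 36 measured genes rose and 2 fell. That was 22.2% called, where 17.1% of all genes passed. The filter on dim rows kept 35 of the 36, and 8 of these passed, where 28.8% of all genes it kept passed. The list therefore showed no excess of calls over the brighter genes. The median difference of the list was 0.03 log2 units. Ripk3, the kinase of necroptosis, changed most. It read 8.84 and 8.83 in Zip13KO, against 7.12 and 7.05 in WT, a 3.36-fold higher level (difference 1.75, SE 0.08, adjusted p = 1.27e-11). Rbck1 (HOIL-1) and Rnf31 (HOIP), subunits of the ligase that builds linear ubiquitin chains on TNFR1 complexes, rose by 0.66 and 0.46 (adjusted p = 1.82e-05 and 3.72e-04). Sharpin, the other subunit of that ligase, differed by 0.11 (adjusted p = 0.417). Malt1, a paracaspase, rose by 0.35, Ikbke, an IKK-related kinase, by 0.26 and Casp8, the initiator caspase, by 0.23. Of the 2 that fell, Map3k7 (TAK1), the kinase that activates the IKK complex, was 1.66-fold lower, at 8.79 and 8.96 in Zip13KO against 9.65 and 9.55 in WT (adjusted p = 1.75e-06). Bcl10, the partner of Malt1, fell by 0.32 (adjusted p = 0.00735). The smaller calls were less firm: without WT replicate 2 those of Casp8, Ikbke and Malt1 were lost (adjusted p from 0.0580 to 0.0672), and 3 genes rose in place of 6. Casp8 and Ikbke also did not pass without WT replicate 1 (0.166 and 0.148) or Zip13KO replicate 1 (0.149 and 0.162). Without Zip13KO replicate 2, Bcl10 did not pass (0.0828).

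**Figure D3:**
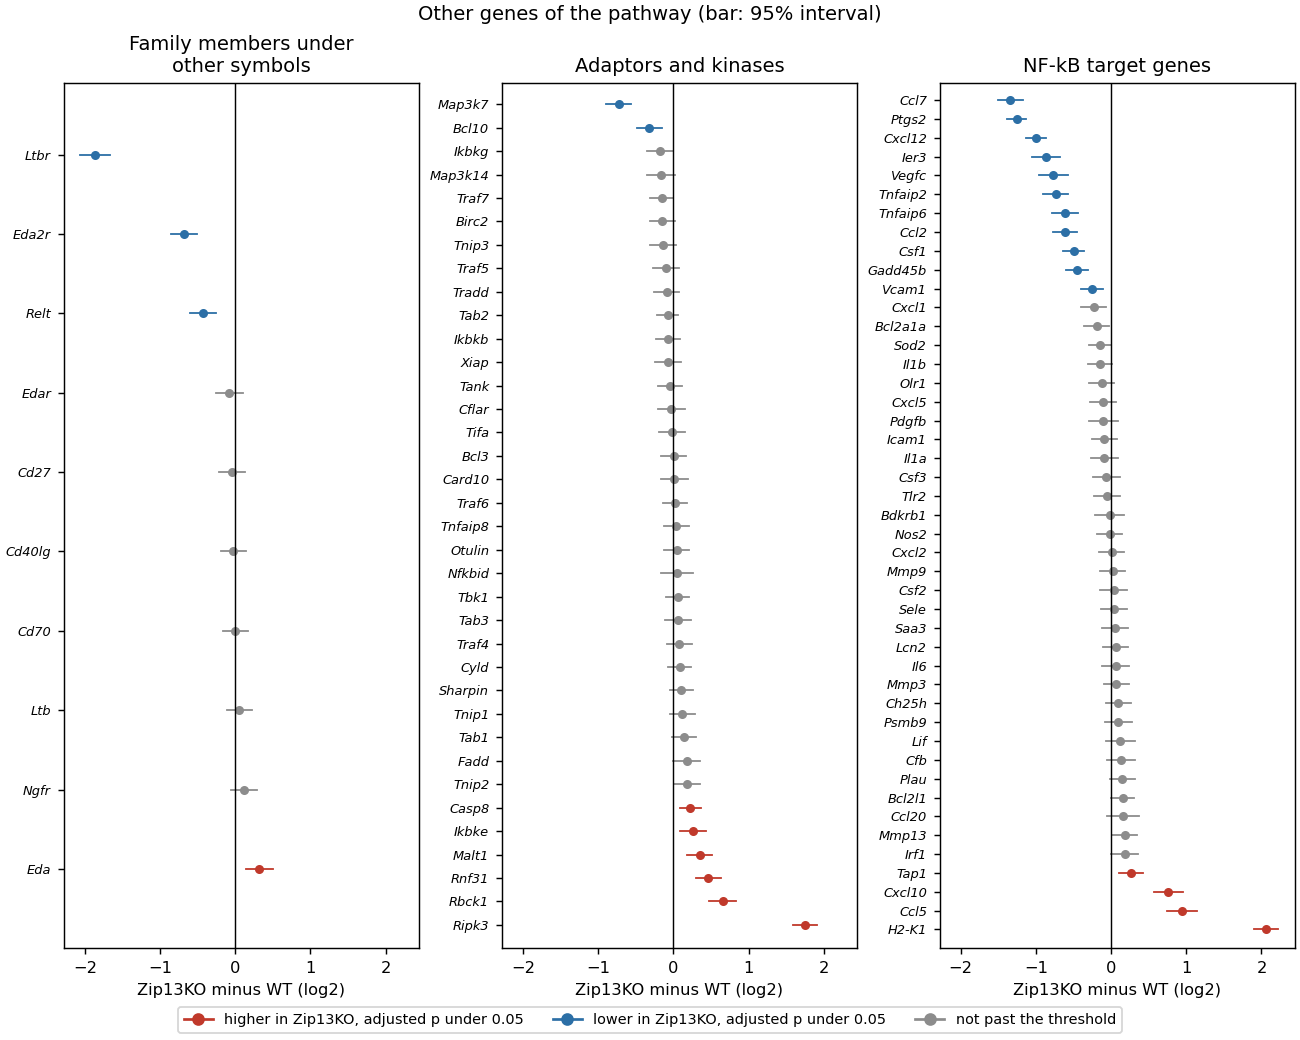
Difference between Zip13KO and WT arrays in log2 intensity for family members under other symbols, for adaptors and kinases, and for NF-kB target genes. Points are limma estimates and bars 95% intervals. Ltbr lies lowest in its panel at -1.87, and Ripk3 (1.75) and H2-K1 (2.06) lie highest in theirs.

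Genes known to be induced by NF-kB moved in both directions. Of 45 measured, 11 fell and 4 rose (33.3% called, where 17.1% of all genes passed), with a median difference of -0.02 log2 units. The chemokine genes Ccl7 (-1.34), Cxcl12 (-1.00) and Ccl2 (-0.61) fell. So did Ptgs2, which encodes the inducible prostaglandin synthase (-1.26), and Ier3 (-0.87) and Vegfc (-0.77), an early response gene and a lymphatic growth factor gene. Tnfaip2 (-0.74) and Tnfaip6 (-0.61), named for their induction by TNF, were lower in Zip13KO, and Csf1 (-0.49), Gadd45b (-0.45) and Vcam1 (-0.25) completed the decreases. The 4 that rose were H2-K1 (2.06), Ccl5 (0.94), Cxcl10 (0.76) and Tap1 (0.26), which encode an MHC class I heavy chain, a pair of chemokines and a peptide transporter subunit. The Tap1 call was lost on leaving out any of the arrays (adjusted p from 0.0663 to 0.120), and that of Vcam1 without WT replicate 1 (0.157) or Zip13KO replicate 1 (0.0698). At an unadjusted limma p under 0.05, 14 of the 45 were lower and 6 higher. The 30 that did not pass include Il6, Icam1 and Nos2, which differed by 0.06, -0.09 and -0.02 (adjusted p from 0.569 to 0.933). Il6 was dim, with means of 5.79 log2 units in Zip13KO and 5.72 in WT, a range where differences are compressed.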

How the data were processed

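The assay was the Affymetrix Mouse Gene 2.0 ST array, with 2 arrays per genotype. The authors deposited intensity values that are linear, from 21.8 to 10826. Affymetrix Expression Console and RMA are named in the submitters' processing notes, with no version or annotation. Since RMA evens out the arrays, a shift common to most genes is removed. The log2 of the deposited intensity was taken, with no pseudocount or filter. Of 41345 rows, 23521 had 1 gene symbol in the platform annotation. The brightest row per gene left 22180 genes, and each member had 1 row. All 45 member symbols matched RefSeq (GRCm38.p6).

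Testing used limma 3.58.1 under R 4.3.3 (lmFit, eBayes with trend, two-sided), with Benjamini-Hochberg adjustment over all genes. Differences are Zip13KO minus WT. Degrees of freedom were 2 residual and 15.1 prior. With 2 arrays a group, the smallest exact permutation p is 0.333. The pipeline was tested on simulated data. Alternatives were a replicate block, a filter on dim rows, quantile normalization, median centring, 2 other variance models, the mean of a gene's rows, all rows in the fit and each array left out. Deviations of same-numbered arrays from their group means were weakly and negatively correlated over genes (r = -0.16). The numbers were not taken as pairs, though with 2 arrays a group this cannot tell whether same-numbered arrays share a batch. Every member past the threshold is named, and of the other lists up to 6 per direction by size; further genes were named after their values were seen. The members and lists were chosen with earlier results of these data known.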

Additional observations from a re-analysis of the deposited data

How the results depend on the processing

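With all rows of the table in the fit and adjustment, 7 members, 1806 genes and 4 adaptors and kinases passed, against 15, 3786 and 8. That setting tests more rows of dim or unnamed features. With the replicate number as a replicate block, 11 members, 3364 genes, 7 adaptors and kinases and 14 NF-kB target genes passed, and the calls of Rela, Nfkbia, Nfkbib, Tnfrsf1a, Casp8 and Vcam1 were lost. With crossed replicate numbers, added after the data were seen, 17 members and 5208 genes passed. Leaving out each array in turn gave 10 to 14 members, 2921 to 3808 genes, 6 to 7 adaptors and kinases and 13 to 14 NF-kB target genes. Quantile normalization, median centring and the other variance models gave 14 to 15 members. The filter on dim rows kept 33 of the 45 members, 3 of the called ones (Fas, Tnfrsf11b and Traf1) only through the group where they are higher, so its count says nothing about stability. Each member has 1 row, so the mean of rows leaves member values as they are. Without trend, Rela and Casp8 did not pass. No member past the threshold changed sign in any of the 13 alternatives. The number of arrays limits the precision.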
